A study of Mus musculus with 9 samples.

Results

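Tbx18, Dmrta2, Cntnap2, Erc2, Ptprg and Epha3 are 6 mouse genes known from developing organs and from nerve cells, and their RNA was read here in sorted natural killer (NK) cells. They were chosen by measured values: their intensities lay near background in NK cells of IL15tg spleen and were very high in NK cells of both NKDxIL15tg organs. They are 6 of 18194 genes named by a single symbol on the array, and their 15 probe sets (groups of probes that together read 1 transcript region) are all the probe sets with those symbols among 45101. Epha3 and Ptprg have 4 probe sets each, Cntnap2 has 3, Tbx18 has 2, and Dmrta2 and Erc2 have 1 each. Because of that choice, their differences from IL15tg spleen are given as a description with no test, and the marrow was tested against the spleen of NKDxIL15tg mice.

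RNA was measured on 9 Affymetrix arrays, 3 biological replicates in each of 3 groups. The groups were NK cells of IL15tg spleen, described by the submitters as mature, and NK cells of NKDxIL15tg spleen and NKDxIL15tg bone marrow, described as immature. All 3 groups carry the IL15tg transgene, a source of the cytokine IL-15 that NK cells need to survive. The NKD line is a transgenic mouse with a reported deficit of mature NK cells, in which the transgene was reported to have inserted at Atf2, a transcription factor gene. The promoter of the IL15tg transgene, the age of the mice and any pooling of mice are not given in the sources used here. There is no group of IL15tg bone marrow and none of NKD mice without the IL15tg transgene, so a difference in maturity cannot be told apart from one in NKD genotype.

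Tbx18 and Dmrta2 encode transcription factors. Tbx18 is a T-box repressor of the epicardium, the sinus node and the somites, and Dmrta2 is a zinc-finger factor of the DMRT family that patterns the embryonic cerebral cortex. The other 4 encode proteins of cell contacts and synapses: Cntnap2 is a neurexin-like adhesion protein that gathers potassium channels along axons, Erc2 is a scaffold of the presynaptic active zone where vesicles are released, Ptprg is a receptor tyrosine phosphatase that binds contactins, and Epha3 is a receptor tyrosine kinase whose ligands are ephrins on neighbouring cells.

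The 6 genes lie on chromosomes 9 (Tbx18), 4 (Dmrta2), 6 (Cntnap2), 14 (Erc2 and Ptprg) and 16 (Epha3). Their promoters are shown because the genes were high together while their start regions share few short motifs. All 6 matched the RefSeq promoter table of GRCm38.p6, and the 120 bases just before the first listed start are printed 5′ to 3′ on the strand of the gene, with matches to any of 10 searched motifs in capitals.
Tbx18, chr9:87731261-87731380, minus strand: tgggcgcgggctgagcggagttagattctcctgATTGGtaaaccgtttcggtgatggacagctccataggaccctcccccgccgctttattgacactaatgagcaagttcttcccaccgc
Dmrta2, chr4:109977905-109978024, plus strand: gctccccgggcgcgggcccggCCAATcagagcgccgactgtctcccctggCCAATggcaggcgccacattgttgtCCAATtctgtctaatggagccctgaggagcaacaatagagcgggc
Cntnap2, chr6:45059941-45060060, plus strand: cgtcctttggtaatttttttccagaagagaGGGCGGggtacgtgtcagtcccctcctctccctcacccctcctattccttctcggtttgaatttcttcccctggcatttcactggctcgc
Erc2, chr14:27622287-27622406, plus strand: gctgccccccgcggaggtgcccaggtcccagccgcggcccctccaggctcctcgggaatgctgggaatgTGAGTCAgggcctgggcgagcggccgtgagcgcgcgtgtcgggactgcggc
Ptprg, chr14:11553433-11553552, plus strand: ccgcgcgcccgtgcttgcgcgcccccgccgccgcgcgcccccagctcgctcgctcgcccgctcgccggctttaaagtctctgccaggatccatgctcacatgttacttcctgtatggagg
Epha3, chr16:63864176-63864295, minus strand: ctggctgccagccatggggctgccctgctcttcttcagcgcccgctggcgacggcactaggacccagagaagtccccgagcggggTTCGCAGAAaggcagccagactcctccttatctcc

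Over the 250 bases before the start, the most frequent motif was the CCAAT box (CCAAT), found in 3 of the 6 promoters at their first listed start and in 33.8% of all 32851 promoters searched the same way. Dmrta2 held 3 of them, 99, 70 and 45 bases before the start, Tbx18 held 1 at 87 bases, and Erc2 held 1 at 192 bases, outside the stretch printed. A GC box (GGGCGG, 32.7% of all promoters) stood in Cntnap2, an AP-1 site (TGANTCA, 6.75%) in Erc2 and a STAT site (TTCNNNGAA, 7.02%) in Epha3. No match was found in any of the 6 for the CRE (TGACGTCA, 1.55% of all promoters), which ATF factors bind, the E-box (CACGTG, 6.02%), the T-box site (TCACACCT, 1.12%), the RUNX site (TGTGGT, 14%), the homeodomain core (TAATTA, 4.84%) or the TATA box (TATAAA, 12.4%). Motifs were searched on both strands and none of these matches overlapped another. The ratio of observed to expected CpG pairs was 0.657 to 1.08 in the 6 promoters, against a median of 0.374 in all promoters. Cntnap2 and Ptprg have another RefSeq start downstream, with ratios of 0.247 and 0.351. That of Cntnap2 held CCAAT boxes 227 and 63 bases before it, and the arrays do not tell which start was used.

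Of the 15 probe sets, 12 passed the filter on low values (a mean over the 9 arrays of at least 47.7 intensity units), and 11 of these 12 had an IL15tg mean below that value. The 3 under the filter were 1 of Cntnap2 and 2 of Epha3. In all 15 probe sets the lowest of the 6 NKDxIL15tg arrays lay above the highest of the 3 IL15tg arrays, which is the pattern the genes were chosen for. The same separation held for 9.65% of all probe sets other than controls (4345 of 45037). Among all of these, 34 probe sets of 26 genes kept at least an 8-fold gap between those arrays after values under 16 were raised to 16, and 8 of the 34 belong to these 6 genes. In sorted cells measured in bulk, fewer cells with a transcript and less of it per cell cannot be told apart.

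**Figure D1:**
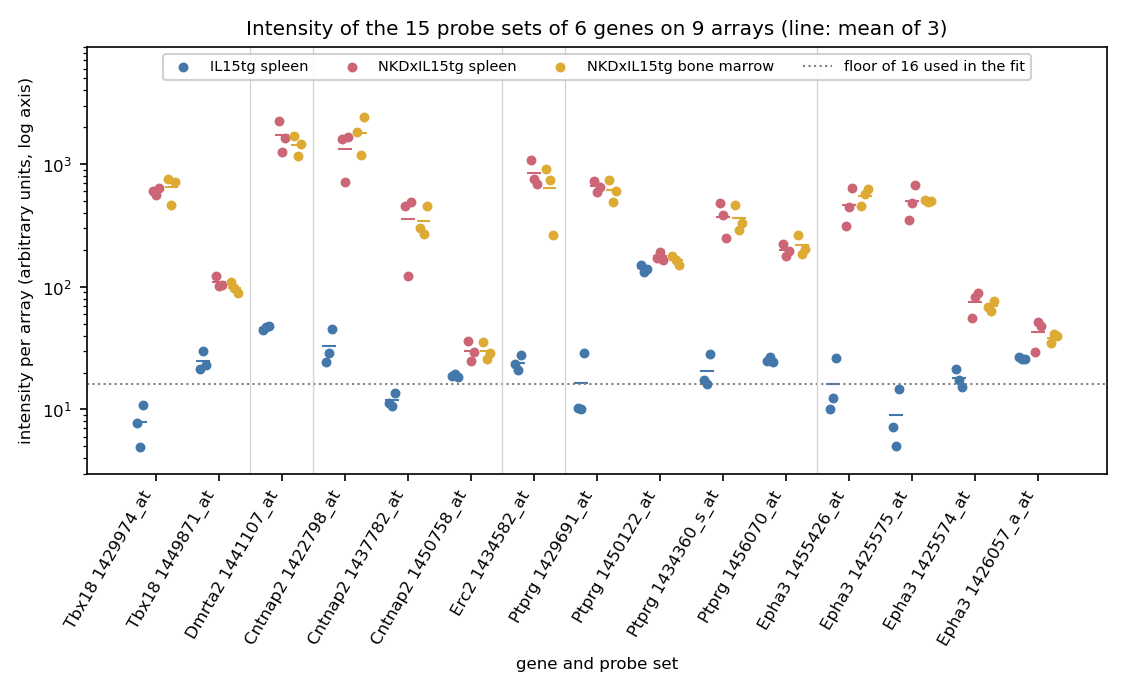
Intensity on each of the 9 arrays (points, log axis, arbitrary units) for the 15 probe sets of the 6 genes, coloured by group, with a line at each mean of 3 arrays. In every probe set the 6 NKDxIL15tg points lie above the 3 IL15tg points, by a wide gap for the leading probe set of each gene and narrowly for 1450122_at of Ptprg and 1426057_a_at of Epha3. Heights of different probe sets are not comparable with each other.

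Tbx18 had the widest gap of the 6. Its brighter probe set, 1429974_at, read 7.77, 4.98 and 10.9 in IL15tg spleen, 602, 562 and 637 in NKDxIL15tg spleen, and 762, 464 and 718 in NKDxIL15tg bone marrow. All 3 IL15tg arrays lay under the floor of 16 to which values were raised before taking logarithms, and the NKDxIL15tg arrays of the 2 organs overlapped. On the floored scale the spleen difference was 5.23 ± 0.18 log2 (± is the standard error throughout, n = 3 per group), a 37.5-fold difference, and with floors of 1 and 64 it was 6.32 and 3.23. The lowest NKDxIL15tg array was 29 times the floor.

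The second Tbx18 probe set, 1449871_at, read 21.5, 29.9 and 23.2 in IL15tg spleen, 123, 101 and 104 in NKDxIL15tg spleen, and 109, 98.5 and 88.5 in bone marrow. The groups kept the same order with a smaller difference, 2.15 ± 0.15 log2 between the spleens. Its 2 NKDxIL15tg groups again overlapped.

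Dmrta2 was read by 1441107_at alone. It gave 44.6, 46.8 and 47.7 in IL15tg spleen, 2256, 1246 and 1645 in NKDxIL15tg spleen, and 1684, 1173 and 1454 in bone marrow. The IL15tg arrays were within a few units of each other, and replicate 2 was the lowest NKDxIL15tg array in either organ. The spleen difference was 5.17 ± 0.21 log2 and the marrow difference from IL15tg spleen 4.94 ± 0.21.

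Cntnap2 varied most among the NKDxIL15tg spleen arrays. Probe set 1422798_at read 24.3, 28.7 and 45.2 in IL15tg spleen, 1597, 721 and 1649 in NKDxIL15tg spleen, and 1812, 1187 and 2398 in bone marrow. Probe set 1437782_at read 11.3, 10.6 and 13.7, then 459, 123 and 489, then 302, 271 and 457, in the same order of groups. Replicate 2 was the lowest array of both NKDxIL15tg organs in each of these probe sets, and in 1437782_at the highest spleen array was 3.97 times the lowest. The spleen differences were 5.29 ± 0.38 and 4.24 ± 0.47 log2. The remaining Cntnap2 probe set, 1450758_at, which the annotation ties to the same transcript record as 1422798_at, stayed between 18.4 and 36.1 on all 9 arrays.

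Erc2, the active zone scaffold, was read by 1434582_at alone. It gave 23.3, 20.9 and 27.7 in IL15tg spleen, 1086, 759 and 693 in NKDxIL15tg spleen, and 908, 743 and 266 in bone marrow. The value of 266 in bone marrow replicate 3 stood well under the other NKDxIL15tg arrays and still above every IL15tg array. The spleen difference was 5.12 ± 0.41 log2.

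Ptprg had 4 probe sets that ranged from a large difference to almost none. Probe set 1429691_at read 10.3, 10.1 and 29 in IL15tg spleen, 729, 596 and 652 in NKDxIL15tg spleen, and 745, 493 and 600 in bone marrow, a spleen difference of 5.07 ± 0.24 log2. Probe set 1434360_s_at read 17.3, 16.1 and 28.1, then 482, 386 and 250, then 466, 288 and 331, a difference of 4.18 ± 0.30. The suffix _s_at marks a probe set whose probes can match more than 1 transcript. Probe set 1456070_at read 24.7, 26.8 and 24.4, then 225, 178 and 197, then 266, 185 and 202, a difference of 2.98 ± 0.15. In these 3 probe sets the NKDxIL15tg arrays of spleen and marrow intermingled, far above IL15tg spleen.

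The remaining Ptprg probe set, 1450122_at, was the only one of the 15 not near background in IL15tg spleen. It read 150, 132 and 139 there, 172, 192 and 166 in NKDxIL15tg spleen, and 179, 166 and 151 in bone marrow. Its groups only just separated, with 150 as the highest IL15tg array and 151 as the lowest NKDxIL15tg array. The spleen difference was 0.33 ± 0.11 log2.

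Epha3, the ephrin receptor, also had 4 probe sets. Probe set 1455426_at read 10.1, 12.5 and 26.1 in IL15tg spleen, 312, 448 and 640 in NKDxIL15tg spleen, and 451, 567 and 632 in bone marrow. Probe set 1425575_at read 7.2, 5.02 and 14.8, then 349, 484 and 669, then 505, 495 and 504. Unlike Dmrta2 and Cntnap2, both had their lowest NKDxIL15tg spleen value in replicate 1 and the highest in replicate 3. The spleen differences were 4.57 ± 0.28 and 4.92 ± 0.20 log2, the latter with all 3 IL15tg arrays under the floor.

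The other Epha3 probe sets were dim. Probe set 1425574_at read 21.5, 17.5 and 15.1 in IL15tg spleen, 55.6, 82.2 and 88.2 in NKDxIL15tg spleen and 68.1, 63.2 and 77 in bone marrow, and comes from the same transcript record as 1425575_at. Probe set 1426057_a_at read 25.7 to 27 in IL15tg spleen and 29.3 to 51.2 in the 6 NKDxIL15tg arrays. Neither was tested, since both lay under the filter. Over the probe sets of 1 gene the spleen difference thus ran from 0.33 to 5.07 log2 for Ptprg, from 0.67 to 5.29 for Cntnap2, from 0.67 to 4.92 for Epha3 and from 2.15 to 5.23 for Tbx18.

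NKDxIL15tg bone marrow was tested against NKDxIL15tg spleen, which asks whether the level of the 6 genes depended on the organ. The genes were not chosen by this difference, but the choice required very high values in both organs. A gene high in only the spleen or only the marrow was thus left out. A small difference or an overlap between the organs is therefore partly set by the choice. None of the 12 tested probe sets passed limma's test (adjusted p under 0.05) and none had an unadjusted p under 0.05. In this comparison 0.0518% of all tested probe sets passed (14 of 27022, with 2816 at an unadjusted p under 0.05), or 23 with the replicate number as a block, so a count of 0 among 12 is near the background. Of the 12, 6 were higher and 6 lower in marrow. The arrays of the organs overlapped in all 15 probe sets. The share of all probe sets with such an overlap was not computed, so no conclusion is drawn from that count.

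The size of difference that these arrays leave possible varied by gene. For Tbx18 1429974_at the marrow differed from the spleen by 0.08 ± 0.18 log2, with a 95% interval of -0.32 to 0.48. For Dmrta2 it was -0.23 ± 0.21, from -0.71 to 0.25, and for Ptprg 1429691_at -0.12 ± 0.24, from -0.67 to 0.43. As folds of marrow over spleen, the widest bounds of these 3 intervals were 0.612 (Dmrta2) and 1.39 (Tbx18). For Epha3 the intervals were -0.36 to 0.93 (1455426_at) and -0.40 to 0.51 (1425575_at). Cntnap2 1422798_at gave 0.48 ± 0.38, from -0.38 to 1.34, and 1437782_at gave 0.15 ± 0.47, from -0.91 to 1.20, which as folds are 0.768 to 2.54 and 0.533 to 2.3.

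Erc2 had the smallest adjusted p of the 12, 0.545 by limma, at -0.56 ± 0.41 log2 and a 95% interval of -1.47 to 0.36. Without bone marrow replicate 3 the Erc2 difference was -0.01. That array stood apart: its median intensity was 64.9 against 56.6 to 59.1 on the other 8, and its ranks correlated with those of its group mates at 0.877 on average, where the others gave 0.916 to 0.976. No probe set of the 6 genes passed without it either.

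**Figure D2:**
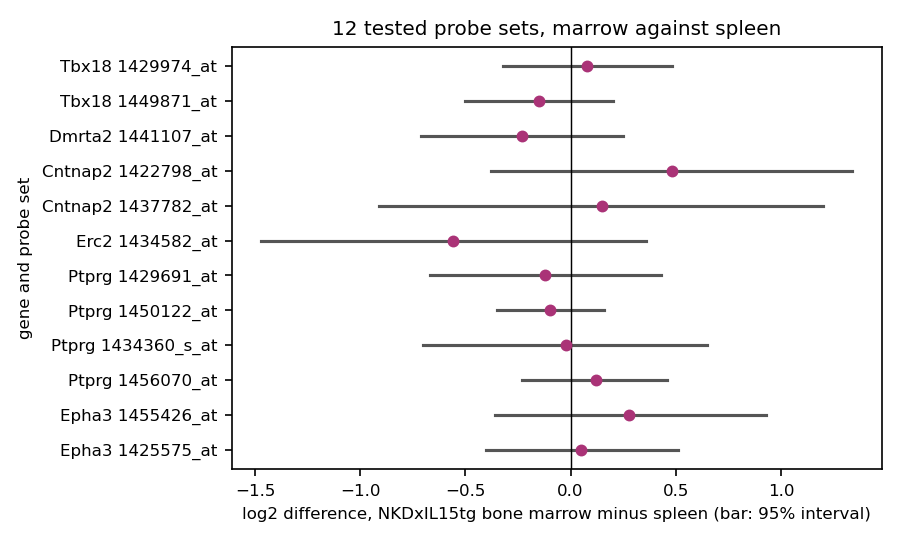
Log2 difference between NKDxIL15tg bone marrow and NKDxIL15tg spleen for the 12 tested probe sets (points), with 95% intervals from limma (bars). Every interval spans 0; the widest are those of Cntnap2 1437782_at (-0.91 to 1.20) and Erc2 (-1.47 to 0.36).

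Paralogs and partners of the 6 genes were read from lists of related genes, 132 genes in all, of which 119 had a probe set and 69 passed the filter. Each gene was represented by its brightest probe set and read from the same limma fit. These lists were drawn up with earlier results of these arrays known, so their p-values describe the arrays and are no independent evidence. In NKDxIL15tg spleen against IL15tg spleen 6 of the 69 rose (8.7%, where 7.65% of all 12925 tested genes rose) and 4 fell (5.8%, where 4.87% of all genes fell). Their median difference was -0.05 log2, against 0.02 over all genes. In NKDxIL15tg bone marrow against IL15tg spleen 7 rose (10.1%, against 11.5% of all genes) and 5 fell (7.25%, against 8.7%), with a median of 0.34 beside 0.12 over all genes. These shares are near the background. Of the genes that rose, 4 in each comparison (Dlx1, Dlx2, Ptprj and Rims2) had IL15tg means under the filter and were tested only through the NKDxIL15tg arrays. Both comparisons use the same 3 IL15tg arrays.

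Among the transcription factor relatives, the T-box factors had 7 tested genes, of which 1 fell and none rose in NKDxIL15tg spleen. It was Tbx21 (T-bet), which drives NK cell maturation. Tbx21 read 2227, 2099 and 1781 in IL15tg spleen, 1029, 701 and 791 in NKDxIL15tg spleen, and 849, 418 and 676 in bone marrow. All NKDxIL15tg arrays lay below all IL15tg arrays, by -1.29 ± 0.25 log2 in spleen (limma adjusted p = 0.0113, and 0.0517 without IL15tg spleen replicate 1). Eomes, the other T-box factor of NK cells, gave 0.35 ± 0.13 log2 (adjusted p = 0.122). The MYC-network factor Mga gave -0.41 ± 0.14 in spleen (adjusted p = 0.0786) and fell in marrow, at -0.46 ± 0.14 (adjusted p = 0.0413, and 0.0747 with arrays scaled to a common 75th percentile). That marrow call was also lost with quantile normalization, no filter, the replicate number as a block or the mean of its probe sets (0.0509 to 0.0987). Leaving out any IL15tg array, NKDxIL15tg spleen replicate 1 or marrow replicate 2 or 3 lost it too (0.0597 to 0.13). None of the 3 tested DMRT factors passed, and Dmrta1, the closest paralog of Dmrta2, stayed under the filter at means of 44.6, 28.4 and 38.2 in IL15tg spleen, NKDxIL15tg spleen and NKDxIL15tg bone marrow.

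Genes that act with Dmrta2 in patterning the forebrain held the largest differences among the related lists. Of 10 tested, 2 rose and 1 fell in NKDxIL15tg spleen. Dlx1, a homeobox factor of forebrain interneurons, read 15.9, 14.6 and 18.1 in IL15tg spleen, 847, 546 and 699 in NKDxIL15tg spleen, and 659, 519 and 541 in bone marrow. Its spleen difference was 5.36 ± 0.17 log2, which was known when the list was drawn up and is given as a description. Its chromosomal neighbour and paralog Dlx2 read 17.4, 19.5 and 24.9, then 626, 414 and 471, then 373, 263 and 355, with a difference of 4.61 ± 0.21, likewise a description. Neither overlapped IL15tg spleen on any array. Hes1, a Notch target, fell by 0.63 on the log2 scale (adjusted p = 0.0133), from a mean of 71 to 45.4, a call lost with a floor of 64. Both Dlx genes lie on chromosome 2, as does Atf2, and none of the 6 genes does. Of the epicardial and sinus node genes that act with Tbx18, none of 3 tested passed and 8 of 10 measured stayed under 100 on all arrays.

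Among Eph receptors and ephrins, 1 of 9 tested genes rose and none fell in NKDxIL15tg spleen. Efnb1, a transmembrane ephrin and a ligand of EphB receptors, read 74.3, 67.9 and 75.3 in IL15tg spleen, 295, 180 and 209 in NKDxIL15tg spleen, and 254, 162 and 290 in bone marrow. It rose by 1.62 ± 0.24 log2 in spleen (limma adjusted p = 0.00295), and its other probe sets rose by 1.02 and 1.07. The receptor Ephb1 gave 0.23 ± 0.14 in spleen (adjusted p = 0.328) and rose in marrow, at 0.44 ± 0.14 (adjusted p = 0.048, and 0.126 with 75th percentile scaling). That marrow call was also lost with quantile normalization, no filter or the replicate number as a block (0.0559 to 0.105). Leaving out any IL15tg spleen or marrow array, or NKDxIL15tg spleen replicate 1, lost it too (0.0688 to 0.145). The paralogs Epha4 and Epha5 stayed under the filter, at means of 42.6, 43.5 and 56.4 and of 30.9, 29.3 and 82.6 in the order given above, where the highest mean of Epha5 rests on a value of 169 in bone marrow replicate 3. Efna5, a ligand of EphA3, had means of 48.4, 54.1 and 69.5 and did not pass (0.18 ± 0.18 log2, adjusted p = 0.605, in spleen).

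Among receptor tyrosine phosphatases, 2 of 13 tested genes rose and 1 fell in NKDxIL15tg spleen. Ptprj (CD148) rose from a mean of 36.5 to 104, by 1.48 ± 0.20 log2 (limma adjusted p = 0.00185), with 0.00658 when no filter was applied. The call was lost with a floor of 64, and its other 3 probe sets stayed under the filter. Ptprn2, a protein of secretory granules, rose by 0.35 ± 0.09 (adjusted p = 0.0354), with 0.0551 when the replicate number was a block and 0.116 with 75th percentile scaling. The Ptprn2 call was also lost with quantile normalization, the mean of its probe sets, or any spleen array or marrow replicate 1 left out (0.0576 to 0.127). Ptpre fell from 688 to 344, by 1.01 on the log2 scale (adjusted p = 0.00343). Ptprz1, the closest paralog of Ptprg, had means of 49.6, 53.6 and 54.1 and did not pass (0.11 ± 0.11, adjusted p = 0.595).

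The neuronal partners of Cntnap2 and Erc2 showed small differences between NKDxIL15tg spleen and IL15tg spleen. Among contactins, Cntnap paralogs and axonal potassium channel partners, none of 10 rose and 1 fell, the channel subunit Kcnab2, from 151 to 99.4 (by 0.61 on the log2 scale, limma adjusted p = 0.00713, and 0.0504 with the mean of its probe sets). Cntnap1 stayed under the filter at means of 42.5, 49.2 and 47.5. Among active zone genes 1 of 16 rose, Rims2, a vesicle-priming scaffold, from 39.3 to 60.4 (0.62 ± 0.11, adjusted p = 0.00876, and 0.00996 with no filter). That call was lost with a floor of 64, its other 4 probe sets did not pass the filter, and the brightest of those 4 read lower in NKDxIL15tg spleen, with means of 49.5 and 34.1. Erc1, the paralog of Erc2 found in most tissues, read 231, 214 and 239 in IL15tg spleen, 212, 184 and 217 in NKDxIL15tg spleen, and 177, 198 and 1004 in bone marrow. Erc1 did not pass in spleen (-0.16 ± 0.55, adjusted p = 0.919). That standard error carries the spread of all 3 groups, including the value of 1004 in marrow. The marrow mean of Erc1 rests on replicate 3, the NKDxIL15tg array on which Erc2 was lowest. Without that array the marrow difference of Erc1 turned from 0.53 to -0.28. In marrow against IL15tg spleen the medians were 0.43 log2 for the partners of Cntnap2 and 0.25 for the active zone genes. The largest difference there was that of Dlg4, which did not pass (1.09 ± 0.63, limma adjusted p = 0.241). Summed intensity of the active zone genes was 2051 to 2376 in IL15tg spleen and 2137 to 6141 in marrow. None of the 69 related genes passed limma's test between NKDxIL15tg marrow and spleen, and 13 had an unadjusted p under 0.05 (18.8%, against 10.9% of all genes).

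**Figure D3:**
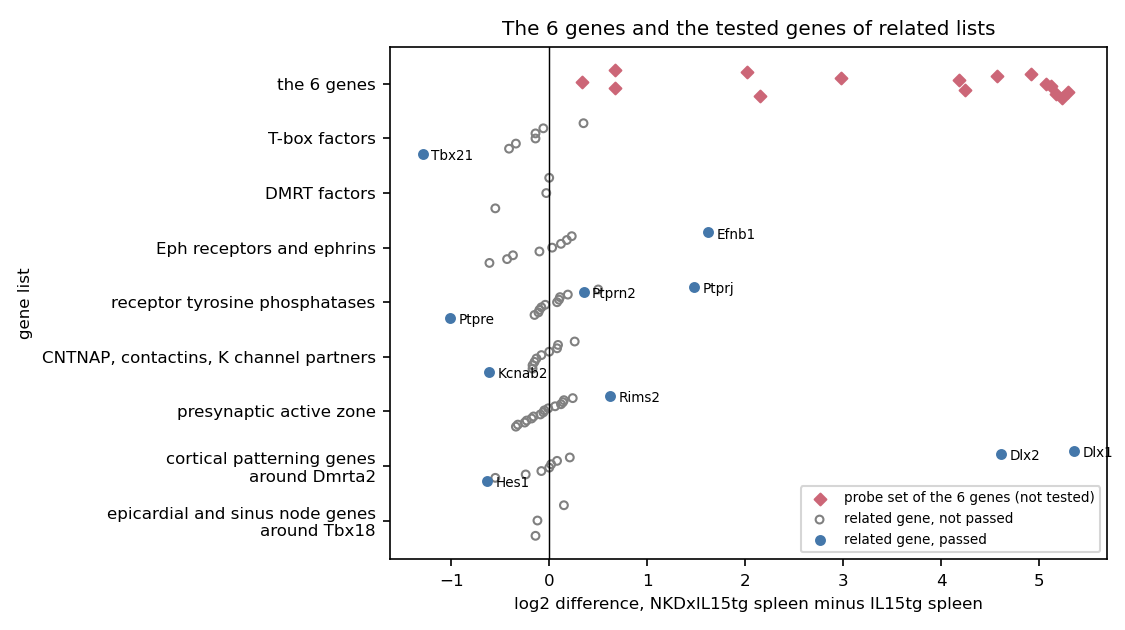
Log2 difference of NKDxIL15tg spleen from IL15tg spleen for the 15 probe sets of the 6 genes (diamonds, chosen for this difference and not tested) and for the tested genes of 8 related lists (circles, filled and named where limma's test was passed). Dlx1 (5.36) and Dlx2 (4.61) are the only related genes plotted beyond Efnb1 (1.62).

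Genes beside the 6 on their chromosomes were compared next, the 3 nearest on each side that passed the filter, 36 in all. Genes under the filter were skipped, so closer genes may lie between. In NKDxIL15tg spleen against IL15tg spleen 3 rose and 3 fell (8.33% each, against 7.65% and 4.87% of all genes), and the median was -0.08 log2 beside 0.02 over all genes. In marrow against IL15tg spleen 5 rose (13.9%, against 11.5%) and 6 fell (16.7%, against 8.7%), with a median of -0.11 beside 0.12. The largest rise in either comparison was 2.31 log2, below the leading probe set of each of the 6 genes. The largest fall was that of Nt5e (CD73, an ectonucleotidase) beside Tbx18, at -2.57 ± 0.61 in marrow (limma adjusted p = 0.0177). That call was lost with the mean of its probe sets (-0.65, adjusted p = 0.111) and without IL15tg spleen replicate 1 or 3 or bone marrow replicate 1 or 2 (adjusted p of 0.0523 to 0.0624). Nt5e gave -1.48 ± 0.61 in spleen (adjusted p = 0.15).

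Neighbours of Dmrta2 held 2 of the rises in spleen. Cdkn2c, an inhibitor of the cell cycle kinases CDK4 and CDK6, rose from a mean of 264 to 1064 in NKDxIL15tg spleen and was at 1315 in bone marrow, by 1.99 ± 0.15 log2 in spleen (limma adjusted p = 8.09e-05). The unnamed locus 9630013D21Rik rose from 105 to 363, by 1.77 ± 0.18 (adjusted p = 0.000397). Spata6, on the other side, fell by 1.24 on the log2 scale (adjusted p = 0.000155), while Faf1, Agbl4 and Bend5, which lie closer to Dmrta2 on their sides, gave 0.03, -0.14 and -0.12. Fhit, the nearest tested gene before Ptprg, rose by 0.94 ± 0.11 (adjusted p = 0.00111). Kctd6 beside it fell by 0.47 on the log2 scale (adjusted p = 0.0342, and 0.102 with 75th percentile scaling). The Kctd6 call was also lost with quantile normalization, or with any IL15tg array or NKDxIL15tg spleen replicate 1 or 3 left out (0.068 to 0.112). Atxn7 beyond Ptprg gave -0.62 ± 0.18 (adjusted p = 0.0529, and 0.0391 with the replicate number as a block). Arhgef5, the nearest tested gene before Cntnap2, fell by 1.42 on the log2 scale (adjusted p = 0.00147). None of the neighbours of Tbx18, Erc2 or Epha3 passed in spleen. In marrow against IL15tg spleen the calls that had not passed in spleen were, beside Nt5e, Syncrip (0.52 ± 0.15, adjusted p = 0.0434), Ezh2 (0.60 ± 0.13, 0.0105), Zfp654 (-0.55 ± 0.12, 0.0101) and Atxn7 (-0.77 ± 0.18, 0.0169). The call of Ezh2 was lost with quantile normalization (adjusted p = 0.061), and that of Atxn7 without IL15tg spleen replicate 1 or 2 or bone marrow replicate 1 or 2 (0.0519 to 0.0679). The call of Syncrip was lost with any IL15tg spleen array left out (0.0967 to 0.133), without replicate 2 or 3 of either NKDxIL15tg organ (0.0517 to 0.0766), and with quantile normalization, a floor of 64, no filter or the mean of its probe sets (0.0512 to 0.0627).

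The profile of the 6 genes over the 9 arrays was also compared with every other tested gene. The measure of likeness was the root mean square difference, in log2 units, from the mean profile of the brightest probe sets, each taken relative to its own IL15tg spleen mean. The nearest of 12919 genes was Dlx1, at 0.196, followed by Npy (neuropeptide Y) at 0.207 and Coch, an extracellular matrix protein of the inner ear, at 0.35. Hsd11b2, which inactivates glucocorticoids, followed at 0.421, the decoy receptor osteoprotegerin (Tnfrsf11b) at 0.462, the lens connexin Gja3 at 0.541, the transcription factor Sox4 at 0.599 and the matricellular protein Ccn3 at 0.607. Among the 6 genes themselves the distance ran from 0.148 (Ptprg) and 0.19 (Dmrta2) to 0.532 (Cntnap2) and 0.545 (Erc2). The correlation with the mean profile was 0.978 to 0.998 for these 8 genes over 9 arrays, and is set by the step between genotypes that all of them share.

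Npy read 33.3, 37.8 and 39 in IL15tg spleen, 1122, 980 and 974 in NKDxIL15tg spleen, and 1349, 1101 and 1220 in bone marrow. Sox4 read 21.2, 23.9 and 31.7, then 929, 349 and 634, then 870, 300 and 643, and was lowest in replicate 2 of both NKDxIL15tg organs, as were Dmrta2 and Cntnap2. Ccn3 read 364, 530 and 871 in NKDxIL15tg spleen, lowest in replicate 1 and highest in replicate 3, as was Epha3. Probe sets disagreed for several of these genes too. A second probe set of Tnfrsf11b gave 0.37 log2 in spleen where the first gave 4.72, a second of Gja3 gave 0.48 against 4.36, and the 8 of Sox4 ranged from -0.32 to 4.55, whereas those of Ccn3 gave 4.72 and 5.01.

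**Figure D4:**
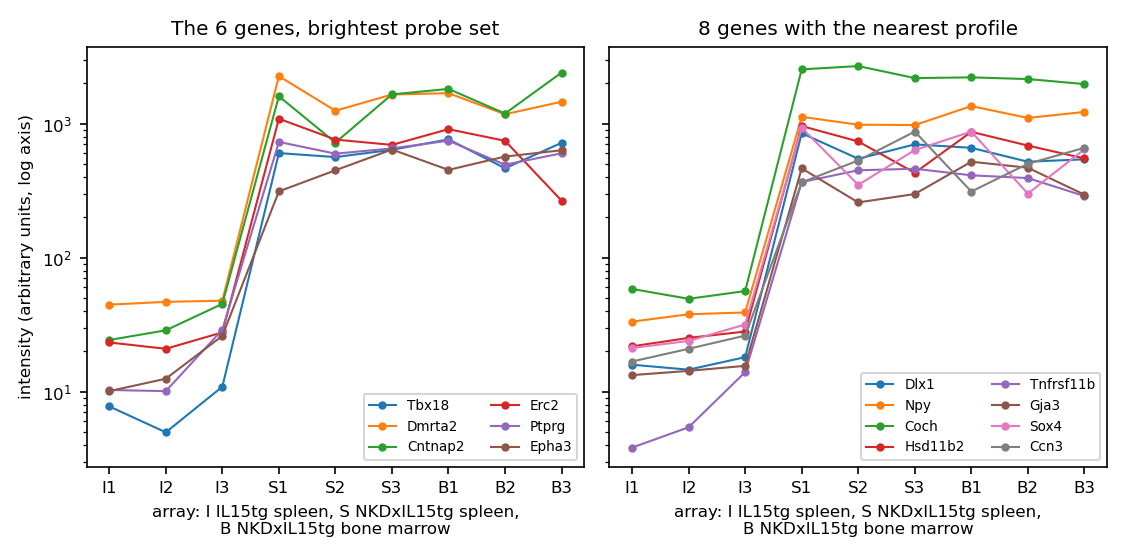
Intensity on each array (log axis, arbitrary units) for the brightest probe set of the 6 genes (left) and of the 8 genes nearest to their mean profile (right), by array: I IL15tg spleen, S NKDxIL15tg spleen, B NKDxIL15tg bone marrow, replicates 1 to 3. Each line steps up between I3 and S1; within the NKDxIL15tg arrays the lines differ, as in Erc2 on B3 (266) and Sox4 on S2 and B2 (349 and 300).

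Markers of cell types in which the 6 genes are better known were mostly low in every group. Of 15 neuron markers 12 stayed under 100 on all 9 arrays and none of the 6 tested passed. Their summed intensity was 705 to 777 in IL15tg spleen, 713 to 730 in NKDxIL15tg spleen and 761 to 1124 in bone marrow. Among these markers Tubb3, Map2 and Snap25 had means of at most 40.3 in any group. Syn1 and Rbfox3 were brighter, at means of 108, 96 and 178 and of 91.4, 77.4 and 106 in the same order of groups, and did not pass. All 10 endothelial markers stayed under 100 on all arrays, with sums of 401 to 405, 385 to 427 and 405 to 445 in the same order of groups. Of the fibroblast markers none of 7 tested passed and their sums were 591 to 650, 587 to 617 and 647 to 781. Of the glial markers none of 5 passed, with sums of 1770 to 1860, 1366 to 1995 and 1485 to 2139. Most of these sums came from Mbp, at means of 1403, 1291 and 1416, and the next highest mean was 144 (Sox10 in marrow). Of the pericyte and smooth muscle markers none of 9 rose, with sums of 2009 to 2179, 843 to 1005 and 825 to 946, and Kcnj8 fell by 3.16 on the log2 scale, from 1333 to 155 (limma adjusted p = 5.06e-05).

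The NK cell label was checked against 13 measured markers, and all 13 were tested. Granzyme A (Gzma) had means of 11530, 10559 and 9131 in IL15tg spleen, NKDxIL15tg spleen and bone marrow, and the signalling adaptor Tyrobp 6483, 5812 and 5581. In NKDxIL15tg spleen 5 of the 13 fell (where 4.87% of all tested genes fell) and none rose. They were the receptors Klrk1 (by 3.09 on the log2 scale), Klrd1, Klre1 and Klrb1b and the factor Tbx21, and the summed intensity was 51281 to 52852 in IL15tg spleen, 36340 to 38308 in NKDxIL15tg spleen and 29996 to 33265 in bone marrow.

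Markers of other blood cells moved with the same groups. Over all tested genes 7.65% rose and 4.87% fell in NKDxIL15tg spleen against IL15tg spleen, and 11.5% rose in marrow. Of 12 tested granulocyte and monocyte markers 6 rose in NKDxIL15tg spleen and 11 in bone marrow against IL15tg spleen. Between marrow and spleen 3 rose, where 0.0518% of all tested probe sets passed. The summed intensity of this list was 1377 to 1714 in IL15tg spleen, 3556 to 8156 in NKDxIL15tg spleen and 12139 to 31605 in bone marrow. Camp, Ltf, Lcn2, Prtn3 and Ctsg had IL15tg means under the filter (15.8 to 43.7) and were tested only through the NKDxIL15tg arrays. Of the erythroid markers 3 of 6 rose in spleen, led by Car2 (1407 to 7016), with sums of 1735 to 1876, 7368 to 7864 and 5236 to 7234, and the globin Hba-a1 stayed at means of at most 35.1. Alas2, 1 of the 3 that rose, had an IL15tg mean of 42.3 and was likewise tested only through the NKDxIL15tg arrays. Of the T cell markers 2 of 8 rose (Cd28 and Trat1), with sums of 1503 to 1604, 2928 to 3401 and 2757 to 3569. The CD3 chains did not pass. Their means were 271, 388 and 423 (Cd3d), 101, 197 and 153 (Cd3g) and 56.1, 60.4 and 67.5 (Cd3e). Of the B cell markers 3 of 6 fell, with sums of 1069 to 1789, 773 to 862 and 684 to 2323. Of the stem, mast cell and basophil markers 1 of 5 fell, Kit, from 139 to 30.6, with sums of 533 to 557, 412 to 454 and 494 to 639. That fall was read by the brighter Kit probe set alone. The other Kit probe set, under the filter, had means of 37.2, 32.3 and 35.3 in the same order of groups. The part of these cells in the levels of the 6 genes was not tested.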

How the data were processed

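Per the labels, 150 ng of Trizol-extracted RNA was amplified in 2 cycles, starting at the 3′ end, and biotin-labelled. Probe sets far from that end can read low after such amplification. Values are linear intensities as the authors deposited them, 1 for each probe set on each array. Neither the probe summary nor the array scaling behind them is given in the sources used here. All 9 columns matched labelled samples. Gene symbols came from the platform annotation: 34958 probe sets carried 1 symbol, 932 several and 9211 none.

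Medians of log2 intensity differed between arrays by at most 0.197, under the limit of 0.3 for rescaling, so the deposited values were used. Values under 16 (4.36%) were raised to 16 and log2 was taken. The 64 control probe sets were left out, and probe sets with a mean at or above the 40th percentile (5.58 log2) were tested, 27022 in all. A model of 3 group means over the 9 arrays was fitted by lmFit and eBayes of limma 3.58.1 (R 4.3.3), 2-sided, with p-values adjusted by Benjamini-Hochberg over all tested probe sets and a threshold of 0.05. Log2 differences are the first group minus the group named after "against". The script was tested on simulated data. The p-values measure the spread between these samples, whose small number limits the precision.

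The genes named are all probe sets of the 6 genes, and the passing genes and chosen paralogs or partners of the related lists. For Tbx18 the chosen genes were Tbx21 and Eomes, the T-box factors of NK cells, which were not picked as its closest paralogs. The 3 nearest tested neighbours on each side were compared, and the 8 genes nearest in profile are named. The members and lists were chosen with earlier results of these data known. Same-numbered arrays deviated together between NKDxIL15tg spleen and marrow (correlations of 0.379, 0.258 and 0.228) and between the spleens (0.163, 0.156 and 0.123). Between IL15tg spleen and marrow replicate 2 gave -0.0236. The labels do not give pairs. The main fit left pairing out, so its standard errors, intervals and p-values are unpaired. Pairing by replicate number was used only in the alternative run with a block. Alternatives were 75th percentile and quantile scaling, floors of 1 and 64, no filter and a 60th percentile filter, the replicate number as a block, array weights, the mean of a gene's probe sets, and leaving out each array.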

Additional observations from a re-analysis of the deposited data

How the results depend on the processing

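No probe set of the 6 genes passed between NKDxIL15tg marrow and spleen under any alternative run. Of 203 recomputed values in that comparison 16 changed sign. The largest of these was -0.50 log2, for Cntnap2 1437782_at without NKDxIL15tg spleen replicate 2. Tbx18 1429974_at was -0.00 with 75th percentile scaling and -0.05 to 0.30 with single arrays left out. Cntnap2 1437782_at was -0.22 with array weights and -0.50 to 0.49 with arrays left out. Ptprg 1434360_s_at was 0.08 with array weights and -0.28 to 0.19 with arrays left out, and Ptprg 1429691_at and 1456070_at ran from -0.27 to 0.03 and from -0.04 to 0.22. Epha3 1425575_at was -0.03 with 75th percentile scaling, -0.01 with quantile normalization and -0.18 to 0.29 with arrays left out. The cause was not tested.

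Against IL15tg spleen, 377 of 406 recomputed values of the 6 genes moved by less than the spread between replicates, 29 moved further, nearly all with another floor, and 0 changed sign. Erc1 in marrow was -0.11 with array weights and -0.28 to 0.97 with arrays left out.

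Over all probe sets, the 14 calls between marrow and spleen became 4 with a floor of 64, 2 with no filter and 23 with the replicate block, and 1 to 15 with arrays left out (1 without NKDxIL15tg spleen replicate 1, 4 without its replicate 3 and 4 without marrow replicate 2). Against IL15tg spleen, the 3725 calls in NKDxIL15tg spleen became 3789 with the block, 5685 with array weights and 1809 to 5483 with arrays left out. The 5764 in marrow became 5957 and 3089 to 6342. Related genes that rose in marrow numbered 4 with the 60th percentile filter and 11 with array weights, and those that fell in NKDxIL15tg spleen 3 to 7 with arrays left out (7 without marrow replicate 3). With the block Ptprn2 lost its call and Atxn7 gained one in spleen, and Mga (0.0554) and Ephb1 (0.0559) lost theirs in marrow; no other named call changed. Signal near background limits the values in IL15tg spleen, which depend on the floor.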
